A study of Homo sapiens with 6 samples.

Results

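The collagen genes encode the chains that wind in threes into collagen, and they were taken as every row of the deposited count table whose symbol is COL, a number, A and a number. This gave 44 of 26334 gene symbols. RNA had been measured in clones of MiaPaCa2, an established human pancreatic ductal adenocarcinoma cell line. There were 3 ZEB1-KO clones, from cells that had taken up a plasmid for Cas9, GFP and a guide RNA against ZEB1, and 3 WT clones, from cells given the Cas9 and GFP plasmid named without that guide. Both kinds were obtained by electroporation and sorting on GFP. ZEB1 is a zinc-finger repressor of epithelial genes. Each library came from 1 clone, so that the spread within a group is the spread between clonal lines, and ZEB1 status cannot be told apart from other differences between clones in any single library. Cells were grown in 10% serum, and 2000 cells were lysed per library. The SMART-Seq2 method used on them starts from the poly-A tail and does not mark the strand.

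Collagens differ in what they build. Fibrillar chains (types I, II, III, V, XI, XXIV and XXVII) form or regulate the banded fibrils of connective tissue, type IV chains form the sheet of basement membranes, type VI chains form beaded filaments, type VII forms the anchoring fibrils under epithelia, and types XIII, XVII, XXIII and XXV span the cell membrane. In pancreatic ductal adenocarcinoma the dense stroma is rich in type I collagen, most of it laid down by fibroblasts. A chain needs partners: type I is normally built from the products of COL1A1 and COL1A2 together, and type IV of most basement membranes from those of COL4A1 and COL4A2.

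The libraries held 18909305 to 36798770 counts in ZEB1-KO clones and 26242238 to 42876693 counts in WT clones, and levels are given as CPM, the count divided by the TMM-scaled library size and rescaled. A floor of 3 counts came to 0.0741 to 0.150 CPM in ZEB1-KO and 0.0687 to 0.122 CPM in WT libraries, which covers counting error only because amplified reads are not independent molecules. ZEB1 itself had 3.34, 3.46 and 11.5 CPM in ZEB1-KO replicates 1, 2 and 3, against 34.0, 31.2 and 33.6 CPM in WT replicates 1, 2 and 3. The groups did not overlap, but the log2 fold change of -2.43 (SE 0.49) had an adjusted p of 0.0930 in edgeR's quasi-likelihood test. Of the duct and epithelial markers, KRT8, KRT18 and KRT19 were abundant in every library, whereas CDH1 (E-cadherin) had at most 4 counts and EPCAM at most 2. The summed level of the list was 4094 to 5318 CPM in ZEB1-KO libraries, against 2188 to 3293 CPM in WT libraries. KRT8 averaged 1940 ± 268 CPM in ZEB1-KO and 817 ± 84.4 CPM in WT clones (SD, n = 3 each) without overlap, with a log2 fold change of 1.25 (adjusted p = 0.0635, or 6.5e-05 in DESeq2). KRT18 also lay higher without overlap, as 11.9% of all tested genes did, with a log2 fold change of 0.52 (adjusted p = 0.297). The part of these markers' shift in the collagen values was not tested. Fibroblast markers summed to 2.94, 9.46 and 3.55 CPM in ZEB1-KO libraries, against 3.44, 2.41 and 5.63 CPM in WT libraries. Of the 9 fibroblast markers, DCN, LUM, FAP and POSTN were at 0 in all 6 libraries, and FBLN1 was the single one with enough counts to test.

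Most collagen genes had few or no counts in these cells. Of the 44, 15 passed the filter on low counts and were tested, and 29 did not. COL9A1, COL9A3 and COL22A1 had 0 counts in every library, and these were among 19 that never exceeded 3 counts. Another 6 reached 4 to 9 counts in some library: COL1A1, COL2A1, COL4A3, COL10A1, COL11A1 and COL14A1. None of the 10 fibril-associated chains (types IX, XII, XIV, XVI and XIX to XXII) and none of the 3 short-chain network chains (types VIII and X) passed. The remaining 4 were counted in single clones or thinly. COL5A1, the usual partner of COL5A2 in type V collagen, had 3, 43 and 6 counts in ZEB1-KO replicates 1, 2 and 3, against 37, 1 and 2 counts in WT replicates 1, 2 and 3, so that 1 clone of each group stood high. COL13A1, a transmembrane chain, had 31, 1 and 1 counts in ZEB1-KO libraries, against 4, 1 and 7 counts in WT libraries. COL6A6, a later-described type VI chain, had 4, 34 and 11 counts in ZEB1-KO libraries, against 9, 9 and 4 counts in WT libraries. COL11A2, a fibrillar chain of cartilage, had 6, 17 and 2 counts in ZEB1-KO libraries, against 4, 6 and 4 counts in WT libraries. These 4 overlapped between the groups.

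Among the 15 tested collagen genes, COL1A2 fell and no other passed the test. That is 1 lower call, beside 0.0586% of all 13659 tested genes called lower in edgeR's quasi-likelihood test, and 0 higher calls, beside 0.117% of all genes called higher and 0.176% called either way. At an unadjusted p below 0.05 there were 2 lower collagens (COL1A2 and COL6A3, against 8.04% of all genes) and 2 higher (COL24A1 and COL26A1, against 9.64% of all genes). DESeq2 called 0 collagens higher (4.42% of all genes) and COL1A2 lower (2.82% of all genes). The likelihood ratio test called COL24A1 higher (2.75% of all genes) and COL1A2 lower (1.76% of all genes). The libraries of the groups did not overlap for 1 collagen that lay lower, COL1A2, against 11.7% of all genes, and for 2 that lay higher, COL4A1 and COL24A1, against 11.9% of all genes. The median log2 fold change over the 15 was 0.13, beside -0.0082 over all tested genes, with 9 above and 6 below 0, beside 50.6% of all tested genes below 0. The fold changes were wide on both sides: the median of their absolute size was 0.94, beside 0.38 over all tested genes. A log2 fold change of at least 1 in size was seen in 6 of the 15, against 12.0% of all genes. Of these 6, COL4A4, COL24A1 and COL26A1 averaged under 1 CPM in both groups, and COL1A2, COL3A1 and COL6A3 did not. Whether collagens differ from other genes of like level in this was not tested.

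**Figure D1:**
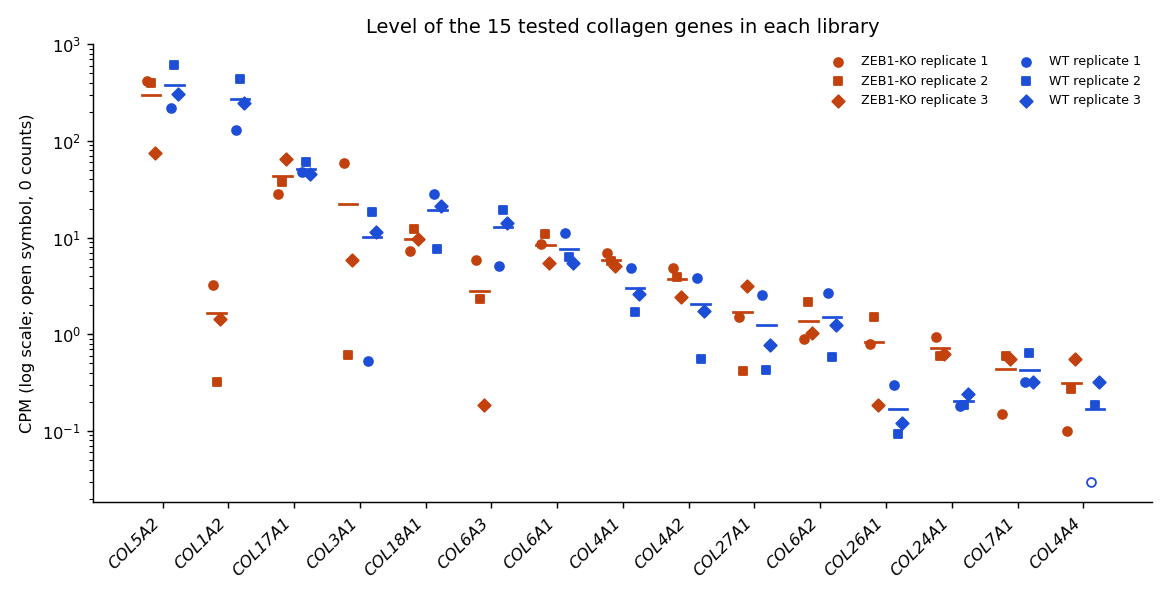
CPM of each of the 15 tested collagen genes in each library, on a log axis. Symbols are libraries, horizontal bars are group means and an open symbol is a library with 0 counts. COL1A2 separates the groups by the widest gap, at 0.321 to 3.24 CPM in ZEB1-KO libraries against 129 to 435 CPM in WT libraries.

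**Figure D2:**
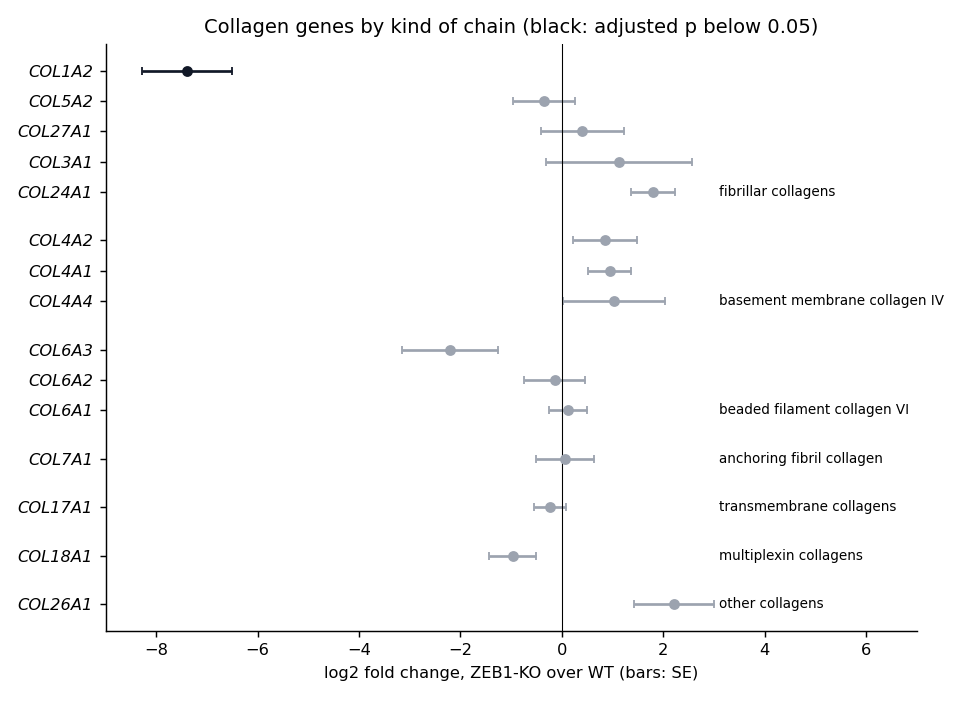
Log2 fold change, ZEB1-KO over WT, of the same genes, arranged by kind of chain, with bars for the SE. The point for COL1A2 at -7.40 passed an adjusted p of 0.05 and the other 14 points, between -2.21 and 2.21, did not.

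COL1A2 codes for an alpha-2 chain, the minor partner in type I collagen. It had 3.24, 0.321 and 1.43 CPM in ZEB1-KO replicates 1, 2 and 3, against 129, 435 and 246 CPM in WT replicates 1, 2 and 3. The highest ZEB1-KO library thus lay far below the lowest WT library, although the ZEB1-KO libraries differed 10.1-fold among themselves and the WT libraries 3.37-fold. The counts behind these levels were 65, 13 and 46 in ZEB1-KO libraries, against 5644, 14119 and 6066 in WT libraries, so that the transcript was still counted in every ZEB1-KO clone. The log2 fold change was -7.40 (SE 0.89), a 169-fold lower level, with an adjusted p of 0.0271 in edgeR's quasi-likelihood test. In a bulk library, fewer cells with the transcript and less of it per cell cannot be told apart. The call did not hold in every fit with 1 library left out. Such a fit also has fewer libraries to test with, so a lost call does not single out the clone left out. Its adjusted p became 0.0589 or 0.0781 when ZEB1-KO replicate 1 or 3 was left out, and 0.0568 or 0.129 when WT replicate 2 or 3 was left out. The log2 fold change stayed between -8.29 and -6.86 with any 1 library left out. Among ZEB1-KO clones, replicate 3 had the most ZEB1 RNA and replicate 1 the most COL1A2. A link between these levels was not tested. In the authors' deposited table the log2 fold change of COL1A2 is -7.36 (adjusted p = 3.87e-09). It is the 1 collagen below 0.05 among the 11 listed in the authors' deposited table, where 1.92% of all listed genes are lower and 2.82% higher at that threshold.

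COL1A1, whose alpha-1 chain normally joins the product of COL1A2, did not share its level. It had 4, 6 and 8 counts in ZEB1-KO libraries, against 1, 0 and 0 counts in WT libraries. The ZEB1-KO libraries lay above the WT libraries, but all 6 values were too low for the test. WT clones therefore held 5644 to 14119 COL1A2 counts beside at most 1 COL1A1 count. No exon of COL1A2 overlapped an exon of another gene annotated in GENCODE 29. Among the tested collagens such overlaps were with MIR936 in COL17A1, MIR3606 in COL3A1, MIR711 in COL7A1 and the antisense genes COL4A2-AS1 and COL4A2-AS2 in COL4A2, each under 1% of the exonic bases. The MIR genes lie on the same strand as their collagen gene, so that strand would not separate reads there. Reads shared with the antisense genes cannot be told apart without strand.

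The values of genes beside COL1A2 on chromosome 7 stand here as the setting of its own. Of the 10 nearest tested genes, 5 on each side, 7 lay below 0 (median -0.74 on the log2 scale), beside 50.6% of all tested genes, and 0 passed an adjusted p of 0.05 in the quasi-likelihood test, with 4 lower at an unadjusted p below 0.05, beside 8.04% of all genes. Its immediate tested neighbours BET1 and CASD1, a Golgi vesicle SNARE and a sialic acid acetyltransferase, had log2 fold changes of -0.83 and -0.69. CDK6, a kinase of the G1 phase and one of the 10, had -4.98 without passing the test, with 3, 0 and 55 counts in ZEB1-KO libraries, against 41, 20 and 1449 counts in WT libraries. Most of its WT counts were thus in WT replicate 3. The 645 other tested genes of chromosome 7 had a median of -0.10, and none had a lower log2 fold change than COL1A2. The part of these neighbours' shift in the value of COL1A2 was not tested.

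The genes whose log2 CPM over the 6 libraries was most like that of COL1A2 were RNF181, CD58, SATB1, SYCE3 and MYEOV2, with Pearson coefficients of 0.996, 0.994, 0.992, 0.991 and 0.991. They were picked as the highest of all tested genes, so the coefficients are a description. SATB1, a chromatin organizer, had 0.200, 0.0247 and 0.218 CPM in ZEB1-KO libraries, against 7.01, 12.9 and 14.1 CPM in WT libraries. CD58, an adhesion ligand of T cells and natural killer cells, had 27.7, 18.6 and 22.6 CPM in ZEB1-KO libraries, against 45.8, 49.8 and 51.3 CPM in WT libraries. Both had their lowest value in ZEB1-KO replicate 2, as COL1A2 did. Their highest value was in WT replicate 3, whereas that of COL1A2 was in WT replicate 2. Among collagens the closest was COL6A3, at 0.727, and the most opposed was COL24A1, at -0.877.

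The other fibrillar chains did not move as COL1A2 did. COL5A2, the alpha-2 chain of type V collagen, a minor component that regulates the diameter of type I fibrils, had 413, 401 and 75.5 CPM in ZEB1-KO libraries, against 219, 612 and 305 CPM in WT libraries. It was abundant in 5 of the 6 libraries and low in ZEB1-KO replicate 3, and the groups overlapped. Its log2 fold change was -0.35 (SE 0.61, adjusted p = 0.793 in the quasi-likelihood test), and 0.10 without ZEB1-KO replicate 3 or 0.19 without WT replicate 2. COL3A1, which encodes the chain of type III collagen, varied more between clones of one group than between groups. It had 59.7, 0.618 and 5.85 CPM in ZEB1-KO libraries, against 0.527, 18.4 and 11.4 CPM in WT libraries. The highest and the lowest clone differed 96.6-fold among ZEB1-KO and 35.0-fold among WT clones, and on a log2 scale with 0.5 CPM added this range was wider than that of 99.9% of tested genes among ZEB1-KO clones and 99.6% among WT clones. Its log2 fold change of 1.12 (SE 1.44, adjusted p = 0.717) became -1.64 without ZEB1-KO replicate 1. COL3A1 and COL5A2 both lie on chromosome 2. In ZEB1-KO replicate 2 COL5A2 had 401 CPM and COL3A1 had 0.618 CPM. A part of the chromosome in either level was not tested.

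COL24A1, a minor fibrillar chain, was low but steady. It had 0.948, 0.593 and 0.623 CPM in ZEB1-KO libraries, against 0.183, 0.185 and 0.243 CPM in WT libraries, from 19 to 24 counts per ZEB1-KO library and 6 to 8 counts per WT library. The groups did not overlap, and the log2 fold change was 1.80 (SE 0.43) with an adjusted p of 0.113 in the quasi-likelihood test, 0.114 in DESeq2 and 0.0268 in edgeR's likelihood ratio test, a test under which 2.75% of all genes were called higher. COL27A1, a fibrillar chain of cartilage, ranged from 0.420 to 3.14 CPM in ZEB1-KO libraries and from 0.432 to 2.57 CPM in WT libraries, and its log2 fold change of 0.40 (adjusted p = 0.828) was -0.45 without ZEB1-KO replicate 3.

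Of the 6 type IV chains of the basement membrane 3 were tested, and none passed. All 3 had a log2 fold change above 0, and the groups overlapped for COL4A2 and COL4A4. COL4A1 had 6.94, 5.71 and 5.04 CPM in ZEB1-KO libraries, against 4.86, 1.70 and 2.59 CPM in WT libraries. The groups did not overlap, but the lowest ZEB1-KO and the highest WT library were close. COL4A2 had 4.84, 3.95 and 2.43 CPM in ZEB1-KO libraries, against 3.85, 0.555 and 1.74 CPM in WT libraries, with overlap through WT replicate 1. Their log2 fold changes were 0.94 (SE 0.42, adjusted p = 0.289) and 0.86 (SE 0.63, adjusted p = 0.509), and both stayed above 0 without any 1 library. The 250 other tested genes of chromosome 13, which carries both, had a median of -0.19.

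COL4A1 and COL4A2 start back to back and read away from each other, which is why their shared start region is shown. The window of COL4A2 in RefSeq (GRCh38.p14, plus strand, chr13:110307034-110307333, running from 250 bases before its start to 50 after) overlaps the window of COL4A1 on the other strand by 226 bases, and capitals mark the 126 bases that lie between the 2 starts. COL4A3 and COL4A4, chains found in few basement membranes such as that of the kidney filter, form a second pair of this kind, with 418 bases between the starts. The window of COL4A3 (GRCh38.p14, plus strand, chr2:227164374-227164673) is shown because it holds the E-box CACCTG, in capitals, the letters that ZEB1 is known to bind.

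COL4A2: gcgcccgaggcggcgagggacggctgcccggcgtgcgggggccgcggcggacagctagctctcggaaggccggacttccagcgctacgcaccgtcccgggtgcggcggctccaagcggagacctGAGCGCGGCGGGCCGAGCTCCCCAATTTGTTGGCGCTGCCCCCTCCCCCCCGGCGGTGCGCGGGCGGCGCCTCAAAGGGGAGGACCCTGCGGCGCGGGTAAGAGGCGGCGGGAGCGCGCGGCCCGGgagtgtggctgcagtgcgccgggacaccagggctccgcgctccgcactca
COL4A3: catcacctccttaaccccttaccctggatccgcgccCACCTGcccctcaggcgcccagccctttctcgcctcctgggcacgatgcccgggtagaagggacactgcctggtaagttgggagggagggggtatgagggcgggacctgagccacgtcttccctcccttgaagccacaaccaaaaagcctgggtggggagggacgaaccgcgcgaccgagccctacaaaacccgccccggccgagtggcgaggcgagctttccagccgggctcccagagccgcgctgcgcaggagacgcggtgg

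The letters CACCTG, on either strand and so also as CAGGTG, were searched in the RefSeq start windows of 300 bases. At least 1 match was found in 5 of the 32 collagen genes that have a window in the table, namely COL4A3, COL4A4, COL8A2, COL9A2 and COL16A1, against 24.1% of all 27305 genes with a window. The 82 bases that the COL4A3 and COL4A4 windows share hold the match of both, so that it is the same run counted for each. COL4A4 was the 1 gene of these 5 that was tested, among 11 tested collagens with a window. The match is a run of letters and not a measured site. COL4A4 had 0.0998, 0.272 and 0.560 CPM in ZEB1-KO libraries, against 0, 0.185 and 0.324 CPM in WT libraries, from 2, 11 and 18 counts in ZEB1-KO libraries, against 0, 6 and 8 counts in WT libraries, with overlap between the groups and a log2 fold change of 1.03 (SE 1.00, adjusted p = 0.621). COL4A3 had 1, 5 and 7 counts in ZEB1-KO libraries, against 7, 7 and 3 counts in WT libraries. The COL4A1 and COL4A2 windows hold no match. COL1A2, COL3A1, COL5A2 and COL6A1 have no entry in the table.

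Partner chains were compared per length, as the ratio of their deposited TPM (transcript abundance scaled for gene length and library by the authors). Of 7 pairs of chains known to assemble together, 2 had at least 10 counts of both chains in every library. The ratio of COL4A1 to COL4A2 was 1.20, 1.21 and 1.75 in ZEB1-KO libraries, against 1.06, 2.57 and 1.25 in WT libraries. COL4A1 exceeded COL4A2 in every library by this scale, most in WT replicate 2, the library with the fewest COL4A2 counts, 18. The size of the ratio depends on the gene lengths used: with CPM per kilobase of GENCODE 29 exons it was 2.47, 2.49 and 3.58 in ZEB1-KO libraries, against 2.18, 5.27 and 2.57 in WT libraries. The mean log2 ratio was 0.45 ± 0.31 in ZEB1-KO and 0.59 ± 0.68 in WT clones (SD, n = 3 each; two-sided exact permutation test, p = 0.8, adjusted p = 0.8 over the 2 pairs). The ratio of COL6A1 to COL6A2 was 9.88, 5.16 and 5.48 in ZEB1-KO libraries, against 4.24, 10.9 and 4.51 in WT libraries. The type VI alpha-1 transcript thus exceeded the alpha-2 transcript in every library, with mean log2 ratios of 2.71 ± 0.52 in ZEB1-KO and 2.57 ± 0.76 in WT clones (SD, n = 3 each; exact permutation test, p = 0.6, adjusted p = 0.8). The smallest value this exact permutation test can give with 3 against 3 clones is 0.1.

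**Figure D3:**
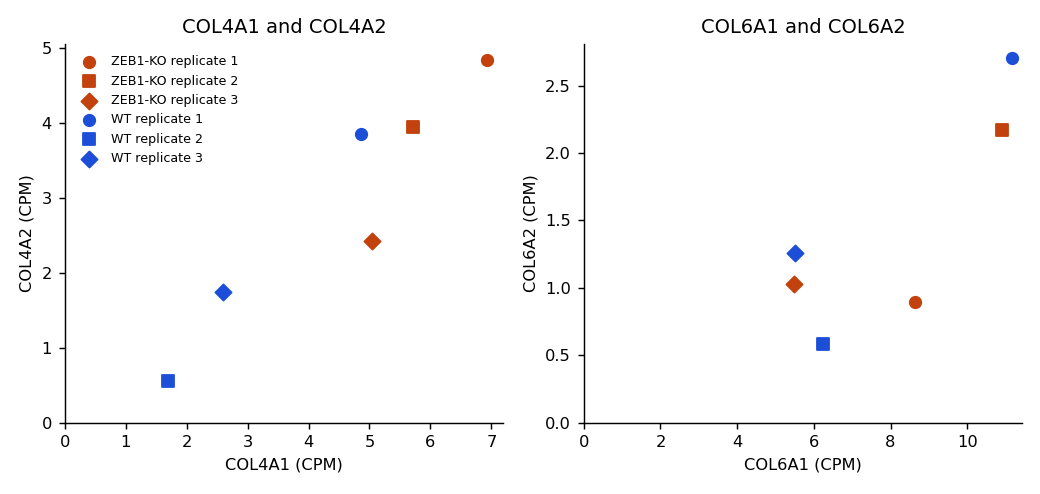
CPM of COL4A2 against COL4A1 (left) and of COL6A2 against COL6A1 (right), 1 symbol per library. ZEB1-KO replicate 1 is highest on both type IV axes, at 6.94 CPM of COL4A1 and 4.84 CPM of COL4A2, and WT replicate 2 is lowest, at 1.70 and 0.555 CPM, and the ZEB1-KO and WT symbols of the type VI pair are mixed.

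Of the type VI chains, COL6A3 had the lowest fold change, and the groups overlapped for all 3 tested chains. COL6A3, the large alpha-3 chain that completes the type VI molecule, had 5.94, 2.32 and 0.187 CPM in ZEB1-KO libraries, against 5.04, 19.2 and 14.3 CPM in WT libraries. ZEB1-KO replicate 1 lay above WT replicate 1, so that the groups overlapped, and ZEB1-KO replicate 3 was down to 6 counts. The log2 fold change was -2.21 (SE 0.95) with an adjusted p of 0.273 in the quasi-likelihood test, and between -3.33 and -1.65 with any 1 library left out. COL6A1 ranged from 5.48 to 10.9 CPM in ZEB1-KO libraries and from 5.51 to 11.2 CPM in WT libraries, with a log2 fold change of 0.13 (SE 0.38, adjusted p = 0.888). COL6A2 ranged from 0.898 to 2.17 CPM in ZEB1-KO libraries and from 0.586 to 2.70 CPM in WT libraries, with a log2 fold change of -0.14 (SE 0.60, adjusted p = 0.920) that was above 0 when WT replicate 1 or either of ZEB1-KO replicates 1 and 3 was left out and with limma-voom or limma on the TPM of all listed genes.

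Of the collagens of the epithelial surface, COL17A1 and COL18A1 were present in all clones. COL7A1 was low, with 3, 24 and 18 counts in ZEB1-KO libraries, against 14, 21 and 8 counts in WT libraries. It was thus at the floor of 3 counts in ZEB1-KO replicate 1. COL17A1, a transmembrane collagen of the hemidesmosomes that anchor epithelial cells, had 28.1, 37.5 and 65.2 CPM in ZEB1-KO libraries, against 47.9, 60.5 and 45.7 CPM in WT libraries. The highest clone and the 2 lowest clones were ZEB1-KO clones, and the log2 fold change was -0.24 (SE 0.32, adjusted p = 0.731), with 0.0010 without ZEB1-KO replicate 1. COL18A1, a basement membrane collagen whose end fragment is endostatin, had 7.23, 12.4 and 9.59 CPM in ZEB1-KO libraries, against 28.4, 7.62 and 21.3 CPM in WT libraries. All but WT replicate 2 of the WT clones lay above the ZEB1-KO clones, and the log2 fold change was -0.97 (SE 0.46, adjusted p = 0.311). COL18A1, COL6A1 and COL6A2 are on chromosome 21, whose 131 other tested genes had a median log2 fold change of -0.33. The part of that shift in the value of COL18A1 was not tested. COL7A1, the chain of anchoring fibrils, stayed between 0.150 and 0.593 CPM in ZEB1-KO libraries and between 0.321 and 0.648 CPM in WT libraries, with a log2 fold change of 0.06 (SE 0.57, adjusted p = 0.965) whose sign varied with the library left out and with limma-voom (-0.016). COL26A1, which belongs to none of these families, had 0.798, 1.51 and 0.187 CPM in ZEB1-KO libraries, against 0.298, 0.0925 and 0.122 CPM in WT libraries. ZEB1-KO replicates 1 and 2 lay above all WT clones and ZEB1-KO replicate 3 did not, and the log2 fold change was 2.21 (SE 0.79, adjusted p = 0.199). Without ZEB1-KO replicate 2 it was too low to be tested.

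Per length, the mean level of COL5A2 was the highest among collagen transcripts in ZEB1-KO clones, and COL5A2 and COL1A2 were close at the top in WT clones. The deposited TPM table lists 11 of the 44 genes. In ZEB1-KO clones COL5A2 (73.8 ± 48.5 TPM) led, followed by COL17A1 (13.2 ± 5.63 TPM) and COL3A1 (6.54 ± 9.65 TPM), and COL1A2 stood at 0.507 ± 0.436 TPM (SD, n = 3 each). The place of COL3A1 rested on ZEB1-KO replicate 1, where it had 17.6 TPM and exceeded COL17A1 at 8.13 TPM, since ZEB1-KO replicates 2 and 3 had 0.207 and 1.77 TPM of COL3A1, below COL6A1. In WT clones COL5A2 (75.1 ± 34.8 TPM) and COL1A2 (68.3 ± 33.9 TPM) led and did not differ beyond their spread, followed by COL17A1 (12.9 ± 1.32 TPM; SD, n = 3 each). COL1A2 made up 0.733%, 0.0833% and 0.936% of the summed collagen TPM in ZEB1-KO libraries, against 32.5%, 42.8% and 42.6% in WT libraries. These shares did not overlap (two-sided exact permutation test on their log2, p = 0.1, the smallest that 3 against 3 clones allow). COL5A2 made up 72.8%, 81.2% and 38.5% in ZEB1-KO libraries, against 42.9%, 47.0% and 41.4% in WT libraries. The COL5A2 shares overlapped (two-sided exact permutation test on their log2, p = 0.4). A share of COL5A2 also depends on how much COL1A2 is in the sum, and the mean COL5A2 level was 73.8 TPM in ZEB1-KO and 75.1 TPM in WT clones. In ZEB1-KO replicate 3 COL17A1 held 41.1%. The summed collagen TPM was 133, 131 and 46.9 in ZEB1-KO libraries, against 114, 244 and 149 in WT libraries, and overlapped (exact permutation p = 0.4). Leaving COL1A2 out of the sum, it was 103 ± 49.2 TPM in ZEB1-KO and 101 ± 33.8 TPM in WT clones (SD, n = 3 each; exact permutation p = 0.8). TPM depends on all other genes of a library and on gene lengths that the authors chose and that were not seen here, and no count-based interval is given for these shares.

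**Figure D4:**
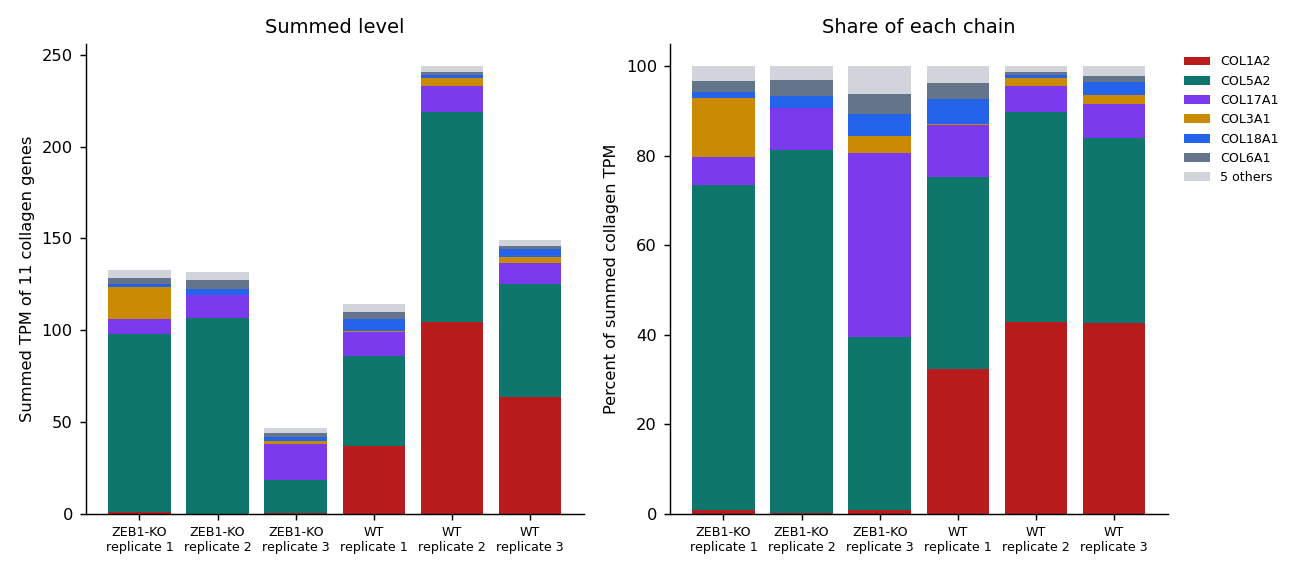
Summed deposited TPM of the 11 listed collagen genes per library (left) and the percent of that sum held by each chain (right), both from 0. COL1A2 fills 0.0833% to 0.936% of the bar in ZEB1-KO libraries, against 32.5% to 42.8% in WT libraries, and the summed level of ZEB1-KO replicate 3, 46.9 TPM, is the lowest of the 6.

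Clones of the same group differed widely in collagen levels. On a log2 scale with 0.5 CPM added, the median distance between the highest and the lowest clone was 0.94 over the 15 tested collagens in ZEB1-KO clones, beside 0.61 over all tested genes, and 1.48 in WT clones, beside 0.53 over all tested genes. Whether collagens differ from other genes in this was not tested.

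Genes that act on collagen chains were given as 6 lists. Of the 18 tested genes for chain hydroxylation and folding in the endoplasmic reticulum, 14 lay above 0 and 4 below, where 50.6% of all tested genes lay below 0. Their median log2 fold change was 0.35, beside -0.0082 over all tested genes. In the quasi-likelihood test 0 passed an adjusted p of 0.05, with 5 higher (9.64% of all genes) and 1 lower (8.04% of all genes) at an unadjusted p below 0.05, and DESeq2 called 2 higher (4.42% of all genes). P3H2, a prolyl 3-hydroxylase that acts on type IV collagen, had 50.6 ± 25.7 CPM in ZEB1-KO and 8.54 ± 3.21 CPM in WT clones (SD, n = 3 each). The groups did not overlap, as was so for 11.9% of all genes on the higher side. Its log2 fold change was 2.57 (SE 0.50, adjusted p = 0.0891 in the quasi-likelihood test, or 5.4e-06 in DESeq2). P4HA2, a catalytic subunit of prolyl 4-hydroxylase, had a log2 fold change of 1.83 (adjusted p = 0.131, or 0.00533 in DESeq2), with overlap because ZEB1-KO replicate 1 was below WT replicate 1. The table also holds its antisense gene P4HA2-AS1. Overlap of their exons was not examined, and reads in any shared stretch cannot be told apart without strand. PLOD1, a lysyl hydroxylase, had 0.97 (adjusted p = 0.219), and COLGALT2, which adds galactose to collagen, had -2.11 (adjusted p = 0.211) at under 2 CPM. Of 12 procollagen export genes, 9 lay above and 3 below 0, beside 50.6% of all tested genes below 0, with a median of 0.28. In the quasi-likelihood test 0 passed and 3 were higher at an unadjusted p below 0.05, beside 9.64% of all genes. These were KLHL12, an adaptor that enlarges transport vesicles (log2 fold change 0.76), CTAGE5, a partner of the procollagen receptor (1.45), and PREB, the exchange factor that starts the vesicle coat (0.90), with adjusted p-values between 0.115 and 0.133, each higher without overlap between groups (11.9% of all genes) and each below 0.05 in DESeq2 (4.42% of all genes).

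Of 8 tested genes for propeptide removal and crosslinking, 3 lay above 0 with a median of -0.02. None passed an adjusted p of 0.05 in the quasi-likelihood test, with 2 higher (9.64% of all genes) and 0 lower (8.04% of all genes) at an unadjusted p below 0.05. BMP1, the protease that removes the C-terminal propeptide, had 8.28 ± 4.84 CPM in ZEB1-KO and 1.39 ± 0.189 CPM in WT clones (SD, n = 3 each; log2 fold change 2.58, SE 0.48, adjusted p = 0.0885, or 1.1e-05 in DESeq2). LOXL3, a lysyl oxidase, had a log2 fold change of 2.30 (SE 0.47, adjusted p = 0.0942, or 0.00684 in DESeq2). Neither overlapped between groups, as was so for 11.9% of all genes on the higher side. ADAMTS2, the main remover of the N-terminal propeptide, was too low to be tested.

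Of 8 tested collagen receptors, ITGA2 rose and 0 fell at an adjusted p of 0.05, beside the 0.117% of all genes called higher, with 4 above and 4 below 0. ITGA2, the alpha-2 integrin chain that binds type I collagen, had 9.68, 5.68 and 19.5 CPM in ZEB1-KO libraries, against 0.504, 0.709 and 0.203 CPM in WT libraries, with a log2 fold change of 4.59 and an adjusted p of 0.0460 in the quasi-likelihood test. That call was lost in limma-voom (adjusted p = 0.0553) and without any 1 library other than ZEB1-KO replicate 2, at adjusted p-values of 0.0619 to 0.165. ITGB1, its beta partner, had 392 ± 131 CPM in ZEB1-KO and 759 ± 214 CPM in WT clones (SD, n = 3 each; log2 fold change -0.95, adjusted p = 0.174). At an unadjusted p below 0.05 there were 2 higher (9.64% of all genes) and 2 lower (8.04% of all genes), and DESeq2 called 1 higher (4.42% of all genes) and 1 lower (2.82% of all genes). ITGA10, another collagen-binding alpha chain, had -2.03 (adjusted p = 0.144, or 0.0225 in DESeq2 and 0.0481 in the likelihood ratio test), and DDR1, a receptor kinase for collagen of epithelial cells, had 1.39 (adjusted p = 0.216). DDR2, its counterpart in connective tissue, had -1.46 at an adjusted p of 0.459.

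Of 6 tested genes of collagen degradation, 4 lay above 0 with a median of 0.20 and 0 passed in the quasi-likelihood test, with 1 higher (9.64% of all genes) and 1 lower (8.04% of all genes) at an unadjusted p below 0.05. DESeq2 called 1 higher (4.42% of all genes) and 1 lower (2.82% of all genes). MMP1, a collagenase that cuts fibrillar collagen, had 119, 1.75 and 824 CPM in ZEB1-KO libraries, against 3.07, 1.20 and 0.486 CPM in WT libraries, so that ZEB1-KO replicates 1 and 3 stood far above and replicate 2 did not. The log2 fold change was 7.59 (SE 1.88, adjusted p = 0.115). TIMP2, an inhibitor of these proteases, had 132 ± 13.8 CPM in ZEB1-KO and 280.4 ± 71.3 CPM in WT clones (SD, n = 3 each; log2 fold change -1.09, adjusted p = 0.0981). Of 19 tested transcription and signalling genes known to act on collagen genes, none of whose activity was measured here, 9 lay above and 10 below 0 with a median of -0.08, and 0 passed in the quasi-likelihood test, with 1 higher (9.64% of all genes) and 2 lower (8.04% of all genes) at an unadjusted p below 0.05. ETS1, a transcription factor, had 2.74 ± 2.14 CPM in ZEB1-KO and 18.2 ± 9.82 CPM in WT clones (SD, n = 3 each; log2 fold change -2.71, adjusted p = 0.131, or 0.00163 in DESeq2). The groups did not overlap for ETS1, as was so for 11.7% of all genes on the lower side. NFYC, a subunit of a CCAAT-box factor, had 0.71 (adjusted p = 0.182), and SOX9, a regulator of cartilage collagens that also marks pancreatic ducts, had -1.07 (adjusted p = 0.277).

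**Figure D5:**
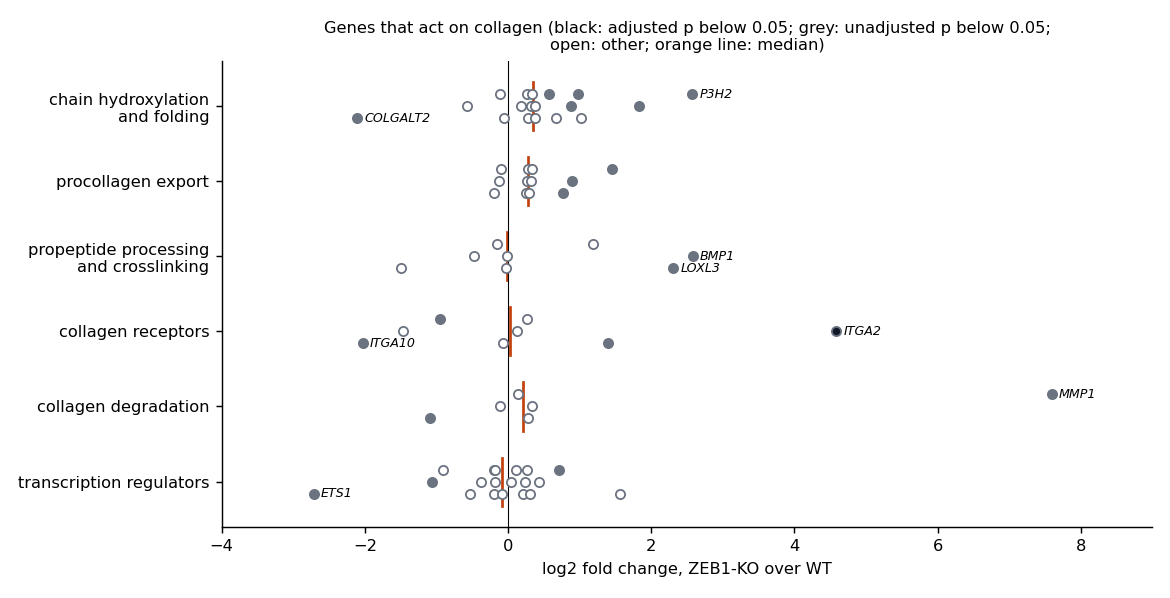
Log2 fold change, ZEB1-KO over WT, of each tested gene in the 6 lists of genes that act on collagen, with an orange line at each list's median. ITGA2 at 4.59 is the 1 black point, past an adjusted p of 0.05, and MMP1 at 7.59 lies farthest out.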

How the data were processed

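RNA of 3 ZEB1-KO and 3 WT clones was analysed, grouped and numbered by the sample titles. The deposited files give whole-number counts for each gene symbol and TPM for 11013 genes. For these genes the authors also deposited their edgeR comparison, whose columns are, per the file headers, log2 values (fold change and CPM), the likelihood ratio statistic (a score), the p-value and its adjusted form. The submitters' processing notes name TopHat2 2.1.0, HTSeq 0.6.1 and edgeR 3.2.2 with builds hg19 and GRCh37, without settings. In the authors' comparison positive means higher in ZEB1-KO (Pearson 1.00 across genes with the fit made here, over genes that are not independent replicates).

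Counts were fitted with edgeR 4.0.16 in R 4.3.3: filterByExpr (minimum count 10, total 15) left 13659 genes, TMM scaling, group alone, glmQLFit and glmQLFTest, two-sided, Benjamini-Hochberg over all genes, threshold 0.05. The SE was derived from the F statistic. The fit was tested on counts simulated from its own model with known changes, where smaller changes were recovered less often than larger ones. A gene that did not pass can thus still differ between the groups. Replicates were separate clones, and no pair of libraries was alike within sampling noise (chi-square per gene at least 127). Alternatives were other scaling (RLE, upper quartile, library size), no filter, 1 CPM in 3 libraries, DESeq2 1.42.0, the likelihood ratio test, limma 3.58.1 (voom, or log2 of TPM plus 1 or 0.1, at a mean TPM of at least 1 or unfiltered), a replicate block and each library left out.

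Log2 CPM for likeness to COL1A2 has a prior count of 2. Chromosomes, gene order and start windows came from RefSeq (97.9% of tested genes matched by symbol) and exons from GENCODE 29, both on GRCh38. No coordinate was combined with the files' build. Proteins were not used here. Each tested collagen was named, with values in every library where the unadjusted p was below 0.05, the log2 fold change at least 1 in size or a group mean at least 10 CPM, and untested ones with at least 10 counts in a library. COL4A1, COL4A2, COL1A1 and COL4A3 were added for their partners. From each list, up to 4 genes with the lowest unadjusted p below 0.05 were named, and ADAMTS2, DDR2 and CDK6 were added after their values were seen. Members, lists and tests were chosen with earlier results of these data known.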

Additional observations from a re-analysis of the deposited data

How the results depend on the processing

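COL1A2 kept a negative log2 fold change in all 18 alternatives, between -8.29 and -5.44, and its call was lost with the replicate block (log2 fold change -7.53, adjusted p = 0.0698, 0 collagen calls) and without 4 of the 6 libraries, so that leaving out 1 library gave 0 to 1 lower and 0 higher collagen calls. The likelihood ratio test gave 1 higher collagen call. The block also ended the call of ITGA2 (4.44, adjusted p = 0.0876). No gene of the 6 lists with an unadjusted p below 0.05 changed sign in any alternative that tested it. The replicate numbers were not taken as pairs: deviations of same-numbered libraries from their group means correlated at 0.022, 0.0071 and 0.22.

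The count of all genes called higher and lower, 16 and 8, became 575 and 367 with DESeq2, 376 and 241 with the likelihood ratio test, 87 and 47 without a filter, 82 and 19 with limma on log2(TPM + 1), 76 and 18 on log2(TPM + 0.1) and 63 and 17 on log2(TPM + 1) without a filter. With 1 library left out it was 3 to 16 higher and 2 to 10 lower. The median log2 fold change of the tested collagens, 0.13, was -0.15 with the filter of 1 CPM, -0.28 and -0.30 with limma on filtered TPM plus 1 and plus 0.1, which test fewer collagens, and -0.14 to 0.54 with 1 library left out, and -0.02 with the replicate block.

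Sign changes touched only collagens that were not called. COL3A1 was at -0.62 with the replicate block and -1.64 to 1.91 with 1 library left out. COL6A2 was at 0.015 with limma-voom and 0.047 with limma on unfiltered TPM, and -0.66 to 0.61 with 1 library left out. COL7A1 was at -0.016 with limma-voom, -0.061 with the block and -0.22 to 0.48 with 1 library left out. With 1 library left out, COL17A1 ranged from -0.65 to 0.0010, COL27A1 from -0.45 to 1.51, COL5A2 from -0.67 to 0.19 and COL6A1 from -0.12 to 0.52. The cause was not tested. CPM per kilobase gave the same group differences in partner ratios as TPM by construction, -0.14 for type IV and 0.14 for type VI, but moved the mean log2 ratio of type IV to 1.49 in ZEB1-KO and 1.63 in WT clones, against 0.45 in ZEB1-KO and 0.59 in WT clones by TPM. For the 29 untested collagens, low expression and limited depth cannot be told apart.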
